A study of Mus musculus with 15 samples.

Results

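The collagen genes were followed as a family in mouse chondrocytes exposed to 4 small-molecule inhibitors. A gene was taken as a member when the array annotation gave it a symbol of the form Col, number, a, number (1 gene of that form was left out by the rule), and the probe set with the highest mean signal over all arrays stood for the gene. This gave 41 collagen genes of the 18193 named genes on the arrays. They were read by 81 probe sets, and 27 genes had more than 1. By the architecture of the protein, 11 are fibrillar collagens, 8 form networks, 9 are FACITs (fibril-associated collagens with interrupted triple helices) and 13 are other collagens, such as the beaded-filament, anchoring-fibril, transmembrane and multiplexin types.

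Collagens are trimers of alpha chains wound into a triple helix, and several types need chains from different genes, so that 1 missing chain can limit the whole trimer. In cartilage, type II collagen makes up most of the fibril, type XI collagen sits in its core and sets its width, and type IX collagen, a FACIT, decorates its surface. Types I, III and V build the fibrils of perichondrium, tendon, skin and bone. Type IV collagens form the sheets of basement membranes, type VIII forms hexagonal networks, type VI surrounds chondrocytes as beaded filaments, and type XVIII carries heparan sulfate in basement membranes.

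The cells were primary chondrocytes from hind-limb cartilage of CD1 mouse embryos at embryonic day 15.5, plated in monolayer, and 3 arrays were hybridized for each of 5 treatments. The treatments were the vehicle DMSO, the PI3K inhibitor LY294002 (10 µM, labelled LY), UO126, SB202190 (labelled SB90) and the histone deacetylase inhibitor Trichostatin A (TSA). The deposited design text assigns UO126 and SB202190 to the MEK/ERK pathway; UO126 is generally known as a MEK inhibitor and SB202190 as a p38 inhibitor. Treatment lasted 24 h by the labels and the methods but 2 hours by the design text, doses other than that of LY294002 are not given in the sources used here, and whether embryos were pooled within a replicate is not given either.

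The comparisons ask which collagen transcripts depend on each signal. The deposited values are on a log2 scale and were normalized between arrays by the authors; array medians were close to each other, the lowest at 6.90, and pairs of arrays correlated at 0.964 to 0.998. All 12 chondrocyte markers examined, among them Acan (aggrecan) and Sox9, lay above a signal of 50 in DMSO. So did all 10 fibroblast and perichondrium markers, 9 of 10 skeletal muscle markers and 8 of 9 keratinocyte and epithelium markers. The counts were 7 of 9 for macrophage and leukocyte, 5 of 8 for endothelial, 5 of 5 for osteoblast and 4 of 4 for Schwann and neural markers. Of 45037 probe sets, 34562 reached a mean signal of 50 in LY294002 or DMSO. These counts therefore do not tell which cells were present. In cultures of mixed cells, fewer cells of a type and less RNA per cell cannot be told apart. The 4 comparisons share the same DMSO arrays and are therefore given side by side. A gene is called higher or lower when the adjusted p of limma's moderated test, over all probe sets tested, is under 0.05, and the test left out probe sets whose mean signal stayed under 50 (5.64 on the log2 scale) in both groups. Standard errors, after ± and as figure bars, are limma's moderated ones. They draw on the spread within all 5 treatments, and n is the number of arrays per treatment.

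The calls in TSA differed between collagen classes. TSA lowered 9 of the 10 tested fibrillar collagens and 8 of the 9 FACITs. It raised 4 of the 8 network collagens and lowered none of them. The other collagens were mixed, with 5 lower and 2 higher of 11 tested. LY294002 and UO126 raised part of the family, by up to 0.83 and 0.94, and no collagen was called higher in SB202190. Of the 41 genes, 37 were tested in every comparison with DMSO, Col4a4 only in that with TSA, and Col24a1, Col17a1 and Col6a5 in none. In TSA 22 of 38 tested collagens were called lower, against 20.6% of all probe sets tested, and 7 higher, against 23.0%. In LY294002 8 of 37 were called higher, against 6.83% of all probe sets, and 2 lower, against 1.78%. In UO126 5 were higher, against 1.14%, and 1 lower, against 0.792%. In SB202190 none was higher, against 1.23%, and 1 was lower, against 0.706%; among the 37 tested, 30 differences were negative. The median difference over the collagens was 0.11 in LY294002, 0.21 in UO126, -0.13 in SB202190 and -0.28 in TSA, where the medians over all probe sets tested were -0.02, 0.00, -0.01 and -0.06.

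**Figure D1:**
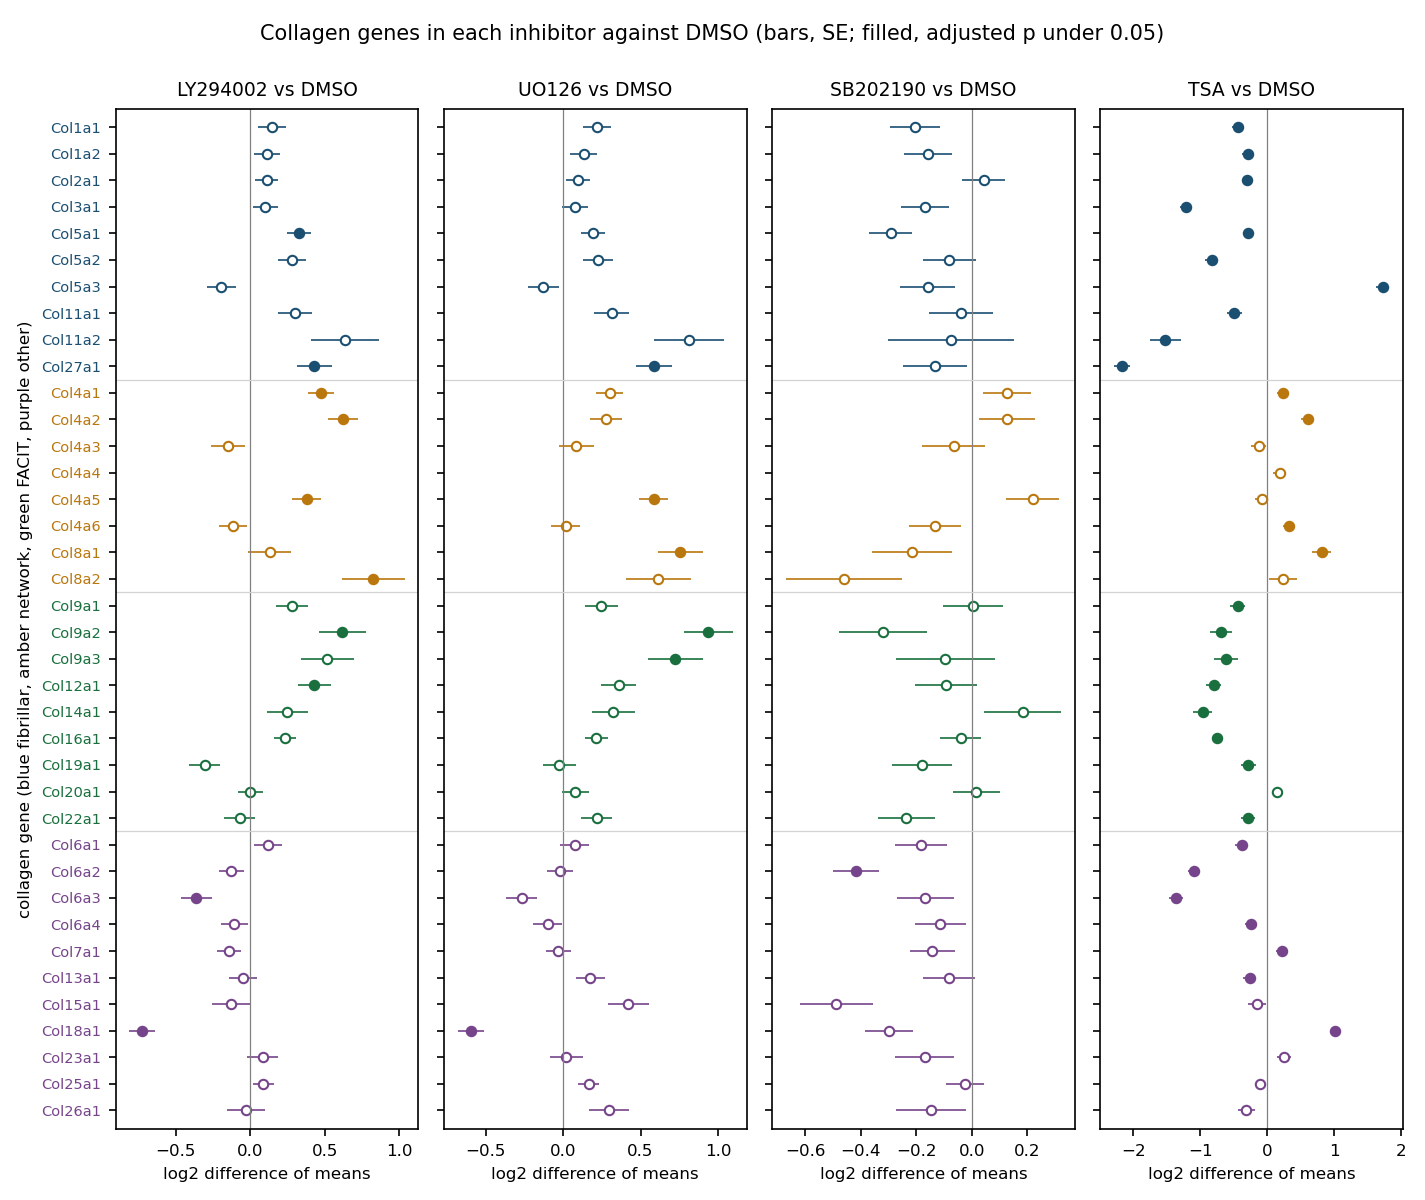
Log2 difference of mean signal from DMSO for the 38 collagen genes tested in at least 1 comparison, 1 panel per inhibitor with its own x axis; bars are standard errors and filled points are called at an adjusted p under 0.05. In the TSA panel the blue fibrillar and green FACIT genes lie left of 0 except Col5a3 and Col20a1, while 6 of 8 amber network genes lie right of it.

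In an F test over all 5 treatments, 34 of the 38 collagens tested in any treatment differed, against 44.5% of all probe sets. All 10 fibrillar collagens were among them, 7 of 8 network collagens, 7 of 9 FACITs and 10 of 11 others, and the 4 that did not pass were Col19a1, Col20a1, Col4a3 and Col6a4. Among the 7 network collagens, Col4a4 (adjusted p = 0.0459 in this F test) was tested only because its mean in TSA, 5.66, reached the filter level. Its means in all other treatments lay under that level. The counts of the kinase inhibitors rest on single arrays. The 8 higher calls of LY294002 became 3 without DMSO array 2, DMSO array 3 or LY294002 array 1, and 4 without LY294002 array 2. The 5 higher calls of UO126 became 3 without DMSO array 2, DMSO array 3 or UO126 array 3. Arrays of the same replicate number were also paired, which their correlated deviations allow for the 3 kinase inhibitors. That fit paired the TSA arrays by number as well. The counts were then 12 higher and 3 lower in LY294002, 9 higher and 1 lower in UO126, and 0 higher and 5 lower in SB202190. Over all probe sets the paired fit also called more. It called 4609 higher and 1761 lower of 34562 tested in LY294002, and 848 and 659 of 34612 in UO126. In SB202190 the counts were 1237 and 668 of 34539.

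The chains of the cartilage fibril fell together in TSA. Col2a1, the single chain of type II collagen, read 14.36, 14.29 and 14.30 in DMSO and 13.92, 13.96 and 14.18 in TSA. All TSA arrays lay below all DMSO arrays, and the mean fell by 0.29 ± 0.08 (SE, n = 3, adjusted p = 0.00493). The Col2a1 probe set lies at the top of the scale, since the highest value of any probe set on any array was 14.4; whether this narrows its differences was not tested. In LY294002 it read 14.42, 14.44 and 14.43, in UO126 14.43, 14.40 and 14.42, and in SB202190 14.33, 14.39 and 14.36, with differences from DMSO of 0.11, 0.10 and 0.04 that did not pass the test.

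Type XI collagen was lower in TSA through both of its own chains. Col11a2 read 11.36, 11.71 and 11.88 in DMSO and 9.80, 9.81 and 10.79 in TSA, so that 1 TSA array stood between the other TSA arrays and the control. The mean fell by 1.52 ± 0.23 (SE, n = 3, adjusted p = 3.47e-05), a 2.87-fold decrease. Col11a1, the other chain, read 13.42, 13.21 and 13.11 in DMSO and 12.55, 12.71 and 13.01 in TSA, and fell by 0.49 ± 0.12 (adjusted p = 0.00232). Under LY294002 and UO126 Col11a2 lay above DMSO on every array (12.09, 12.27 and 12.50 in LY294002, 12.26, 12.33 and 12.82 in UO126), with differences of 0.63 (adjusted p = 0.0967) and 0.81 (adjusted p = 0.0899). These 2 differences did not pass as tested and passed with paired arrays (adjusted p = 0.00128 and 0.000294). Col11a1 differed from DMSO by 0.30 in LY294002 (adjusted p = 0.12) and by 0.31 in UO126 (adjusted p = 0.272). SB202190 gave differences of -0.07 for Col11a2 and -0.04 for Col11a1, with overlapping arrays.

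All 3 chains of type IX collagen fell in TSA, while Col9a2 rose in LY294002 and Col9a2 and Col9a3 rose in UO126. Col9a2 read 9.24, 9.31 and 9.52 in DMSO, 9.82 to 10.11 over the 3 arrays in LY294002, and 9.98, 10.65 and 10.26 in UO126. Both inhibitors lay above DMSO on every array, by 0.62 ± 0.16 in LY294002 (adjusted p = 0.0231) and by 0.94 ± 0.16 in UO126 (adjusted p = 0.00355), which was the largest collagen increase in UO126. In SB202190 it read 8.87 to 9.24, and the difference of -0.32 did not pass (adjusted p = 0.439). In TSA it read 8.60, 8.46 and 8.95 and fell by 0.69 ± 0.16 (adjusted p = 0.00193). The LY294002 call was lost without DMSO array 2, LY294002 array 2 or LY294002 array 3 (adjusted p = 0.0852, 0.065 and 0.0648), whereas the UO126 and TSA calls held without any single array. Leaving out number 2 in all treatments ended the UO126 call too (adjusted p = 0.192).

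Col9a3 read 12.12, 12.22 and 12.40 in DMSO, 12.86, 12.89 and 13.17 in UO126, and 11.39, 11.39 and 12.11 in TSA. It rose by 0.73 ± 0.18 in UO126 (adjusted p = 0.0475) and fell by 0.62 ± 0.18 in TSA (adjusted p = 0.00975), although 1 TSA array lay just under the lowest DMSO array. The UO126 call was close to the threshold and was lost without any 1 of 9 arrays, with adjusted p from 0.0526 without SB202190 array 1 to 0.227 without UO126 array 3. Those 9 were the 3 DMSO arrays, the 3 UO126 arrays, LY294002 array 2 and SB202190 arrays 1 and 2. The TSA call was lost without TSA array 1 (adjusted p = 0.0567) or TSA array 2 (adjusted p = 0.0524). In LY294002 Col9a3 read 12.59, 12.75 and 12.96, a difference of 0.52 (adjusted p = 0.0845, and 0.00125 with paired arrays), and in SB202190 11.93, 12.05 and 12.48. Col9a1 read 13.50, 13.32 and 13.29 in DMSO and 12.84, 12.76 and 13.19 in TSA, and fell by 0.44 ± 0.11 (adjusted p = 0.0032). Its differences in LY294002, UO126 and SB202190 were 0.28, 0.25 and 0.00, none called.

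Col27a1, a fibrillar collagen of the growth plate, had the largest decrease of the family. It read 11.34, 11.36 and 11.37 in DMSO and 9.08, 9.19 and 9.30 in TSA. The 3 control arrays lay close together and the TSA arrays far below them, a difference of -2.17 ± 0.12 (SE, n = 3, adjusted p = 2.24e-10) or 4.5-fold. LY294002 (11.76, 11.68 and 11.93) and UO126 (11.82, 11.77 and 12.24) lay above DMSO on every array, by 0.43 ± 0.12 (adjusted p = 0.0295) and 0.59 ± 0.12 (adjusted p = 0.0112). The LY294002 call was lost without DMSO array 2, DMSO array 3, LY294002 array 1 or LY294002 array 3 (adjusted p = 0.088, 0.0822, 0.0731 and 0.0897) and the UO126 call without UO126 array 3 (adjusted p = 0.0638). SB202190 read 11.07, 11.23 and 11.37, a difference of -0.13 that was not called.

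**Figure D2:**
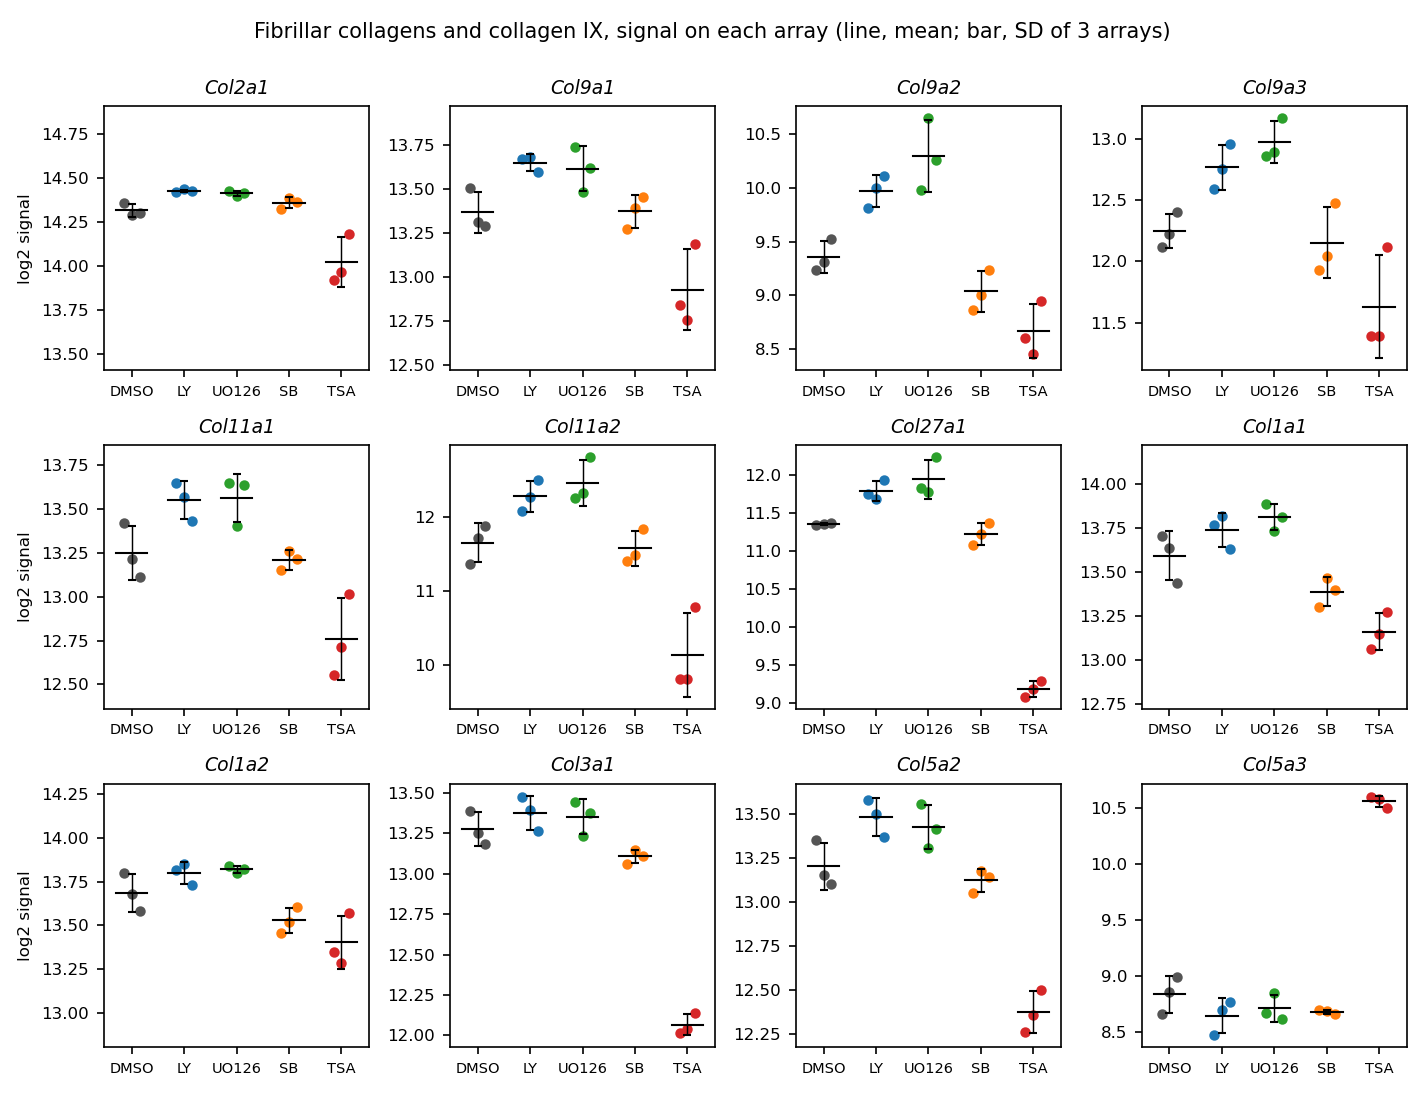
Log2 signal of 12 fibrillar and type IX collagen genes on each of the 15 arrays, by treatment, with a y axis of its own for each gene; horizontal lines are means and bars the SD of 3 arrays. Col27a1 and Col3a1 separate TSA from every other treatment downward and Col5a3 upward. In every gene shown except Col5a3, the third TSA array is the highest of the TSA arrays.

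Among the fibril collagens of other connective tissue, Col3a1 fell most in TSA. Col3a1, the chain of type III collagen, read 13.39, 13.25 and 13.18 in DMSO and 12.02, 12.04 and 12.14 in TSA. The TSA arrays lay together and well below the control, a difference of -1.21 ± 0.09 (adjusted p = 6.13e-09) or 2.31-fold. Its readings in LY294002 (13.47, 13.39 and 13.26), UO126 (13.44, 13.24 and 13.38) and SB202190 (13.06, 13.15 and 13.11) differed from DMSO by 0.10, 0.08 and -0.17, none called.

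Both chains of type I collagen fell less. Col1a1 read 13.71, 13.64 and 13.44 in DMSO and 13.06, 13.15 and 13.27 in TSA, a difference of -0.43 ± 0.09 (adjusted p = 0.000964). Col1a2 read 13.80, 13.68 and 13.58 in DMSO and 13.35, 13.29 and 13.57 in TSA, a difference of -0.28 ± 0.09 (adjusted p = 0.0147). The highest TSA array of Col1a2 lay just under the lowest DMSO array, and its call was lost without DMSO array 1, TSA array 1 or TSA array 2 (adjusted p = 0.0622, 0.0546 and 0.0685). When all probe sets of a gene were averaged, the Col1a1 call was lost (adjusted p = 0.147). In the kinase inhibitors neither chain was called: Col1a1 differed by 0.15 in LY294002, 0.22 in UO126 and -0.20 in SB202190, and Col1a2 by 0.11, 0.13 and -0.16.

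The chains of type V collagen, which starts fibrils of type I collagen, did not move alike in TSA. Col5a2 read 13.36, 13.16 and 13.10 in DMSO and 12.26, 12.36 and 12.50 in TSA, a difference of -0.83 ± 0.10 (adjusted p = 2.03e-06). Col5a1 read 11.82, 11.88 and 11.79 in DMSO and 11.59, 11.55 and 11.48 in TSA, a difference of -0.29 ± 0.08 (adjusted p = 0.00629). Col5a3, the third chain, read 8.66, 8.86 and 8.99 in DMSO and 10.60, 10.58 and 10.50 in TSA. It was the only fibrillar collagen called higher in TSA and had the largest increase of the family there, 1.72 ± 0.10 (adjusted p = 5.27e-10) or 3.3-fold. Through the probe set that stood for it, Col5a1 was also higher in LY294002 (12.26, 12.12 and 12.09), by 0.33 ± 0.08 (adjusted p = 0.0152). That call was lost without DMSO array 3 or LY294002 array 1 (adjusted p = 0.0691 and 0.0776). The other Col5a1 probe sets differed by only 0.06 and 0.11 in LY294002 and were not called (adjusted p = 0.653 and 0.54). Their arrays overlapped with DMSO. In SB202190 Col5a1 lay below DMSO on every array (11.45, 11.53 and 11.63), a difference of -0.29 ± 0.08 (adjusted p = 0.0659, and 0.0318 with paired arrays). Col5a2 differed by 0.28 in LY294002 (adjusted p = 0.0828, and 0.0442 with paired arrays), 0.22 in UO126 and -0.08 in SB202190, and Col5a3 by -0.19, -0.13 and -0.16.

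Every network collagen called against DMSO, with arrays not paired, was higher. Col4a1 and Col4a2 encode the chains that make up the common type IV trimer of basement membranes. Col4a2 read 9.87, 9.62 and 9.53 in DMSO, 10.47, 10.22 and 10.21 in LY294002, and 10.32, 10.27 and 10.24 in TSA. Both treatments lay above every control array, by 0.62 ± 0.10 in LY294002 (adjusted p = 0.00169) and 0.60 ± 0.10 in TSA (adjusted p = 0.000121). Col4a1 read 10.54, 10.58 and 10.50 in DMSO, 11.08, 10.97 and 10.99 in LY294002, and 10.77, 10.76 and 10.81 in TSA. It rose by 0.47 ± 0.09 in LY294002 (adjusted p = 0.00365) and by 0.24 ± 0.09 in TSA (adjusted p = 0.0358). The LY294002 calls of both genes held without any single array. Without number 2 in all treatments both were lost (adjusted p = 0.0613 for Col4a1 and 0.0785 for Col4a2), and Col4a1 also without number 3 (adjusted p = 0.0863). By contrast, the TSA call of Col4a1 was lost without any 1 of the 6 DMSO and TSA arrays (adjusted p from 0.0536 to 0.097). In UO126 the 2 genes differed by 0.30 (adjusted p = 0.109) and 0.28 (adjusted p = 0.274), and in SB202190 both by 0.13. With paired arrays the difference of Col4a1 in UO126 passed (adjusted p = 0.0481).

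Col4a5 and Col4a6 encode chains of another type IV trimer. Col4a5 read 9.79, 9.48 and 9.54 in DMSO, 10.07, 9.99 and 9.88 in LY294002, and 10.31, 10.08 and 10.16 in UO126. It rose by 0.38 ± 0.10 in LY294002 (adjusted p = 0.0224) and 0.58 ± 0.10 in UO126 (adjusted p = 0.00298), and in TSA (9.45, 9.60 and 9.52) it differed by -0.08. Col4a6 read 7.26, 7.54 and 7.31 in DMSO and 7.79, 7.66 and 7.63 in TSA, a rise of 0.32 ± 0.09 (adjusted p = 0.00994), and its differences in LY294002, UO126 and SB202190 were -0.11, 0.02 and -0.13. The LY294002 call of Col4a5 was lost without DMSO array 2, DMSO array 3, LY294002 array 1 or LY294002 array 2 (adjusted p = 0.114, 0.0928, 0.1 and 0.0625). Col4a3 and Col4a4, chains of the kidney and lung type IV trimer, were called in no comparison with DMSO.

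Type VIII collagen differed between its chains. Col8a1 read 10.19, 9.70 and 9.70 in DMSO, 10.75, 10.44 and 10.68 in UO126, and 10.70, 10.58 and 10.76 in TSA. It rose by 0.76 ± 0.14 in UO126 (adjusted p = 0.00874) and 0.81 ± 0.14 in TSA (adjusted p = 0.000189), and LY294002 (10.20, 9.90 and 9.88) differed from DMSO by 0.13. The UO126 call was lost without DMSO array 2 or DMSO array 3 (adjusted p = 0.0513 and 0.0538). Col8a2 spread widely in DMSO, at 9.78, 9.51 and 8.92, and read 10.58, 10.26 and 9.85 in LY294002. It was the largest collagen increase in LY294002, 0.83 ± 0.21 (adjusted p = 0.0224), and was lost without DMSO array 2, DMSO array 3, LY294002 array 1 or LY294002 array 2 (adjusted p = 0.0529, 0.118, 0.123 and 0.0636). In UO126 Col8a2 differed by 0.62 (adjusted p = 0.215, and 0.00869 with paired arrays), in SB202190 by -0.46 (adjusted p = 0.38, and 0.0468 with paired arrays) and in TSA by 0.23 (adjusted p = 0.388).

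**Figure D3:**
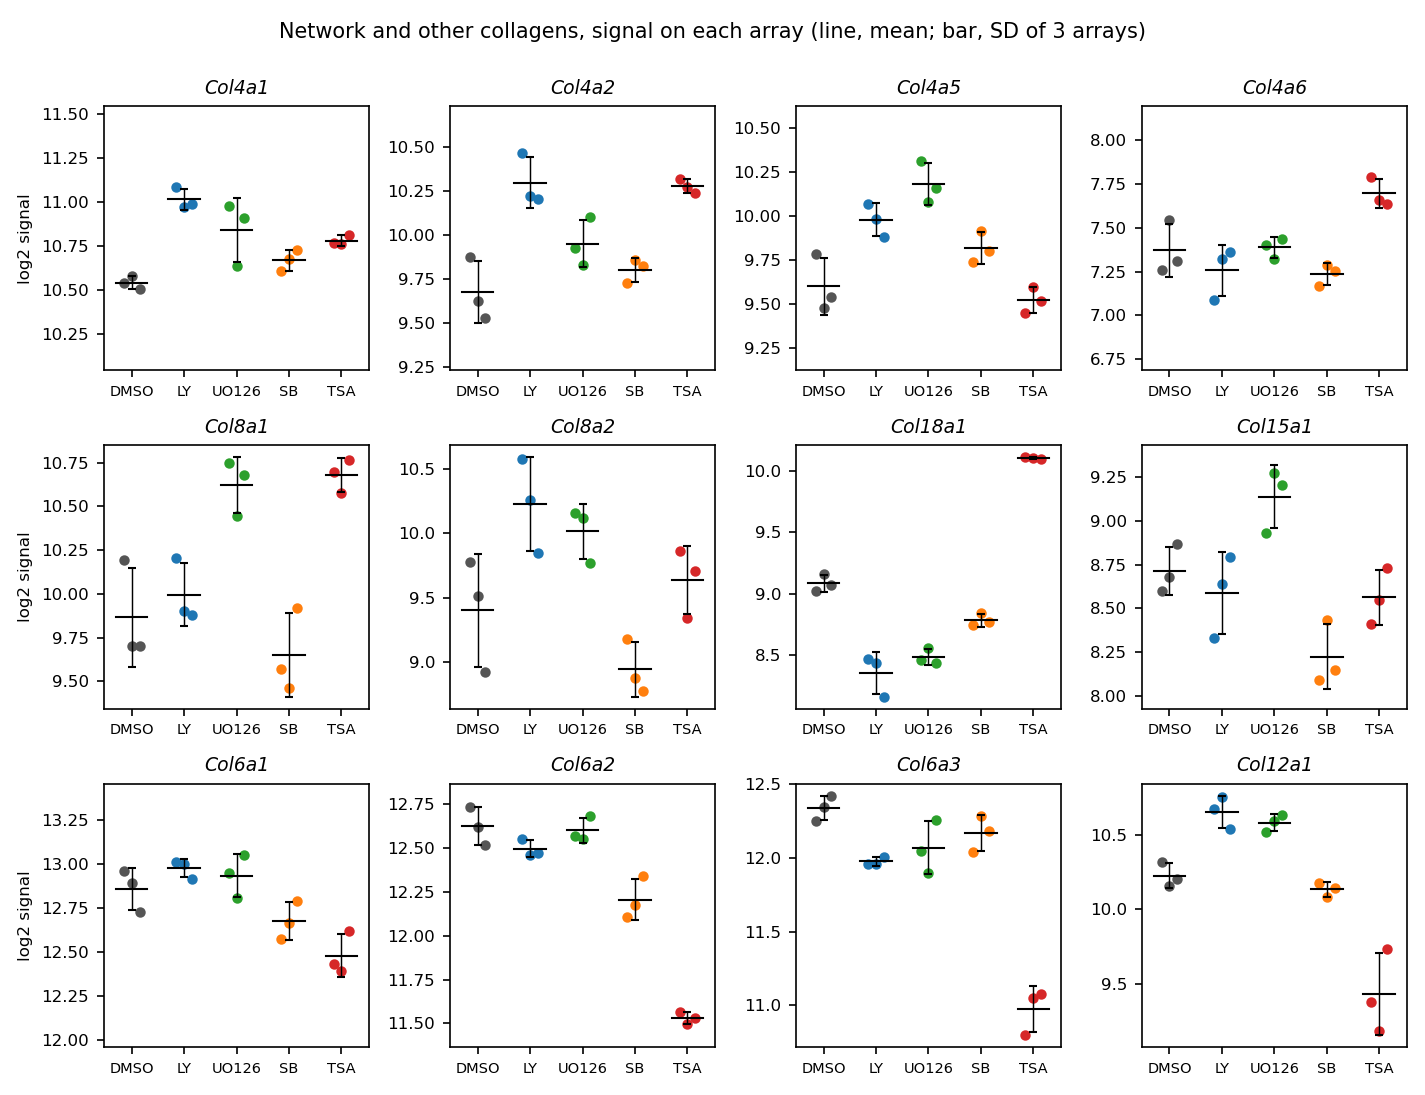
Log2 signal of 12 network, type VI, XII, XV and XVIII collagen genes on each of the 15 arrays, by treatment, with a y axis of its own for each gene; horizontal lines are means and bars the SD of 3 arrays. Col18a1 lies below DMSO in LY294002 and UO126 and above it in TSA with no overlap, and the type VI chains lie lowest in TSA.

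Col18a1, which encodes a heparan sulfate bearing collagen whose end fragment is endostatin, was the only collagen lowered by both LY294002 and UO126 and raised by TSA. It read 9.02, 9.16 and 9.07 in DMSO, 8.47, 8.44 and 8.16 in LY294002, 8.46, 8.56 and 8.44 in UO126, and 10.11, 10.10 and 10.09 in TSA. No array of these 3 treatments overlapped with DMSO. It fell by 0.73 ± 0.09 in LY294002 (adjusted p = 0.000129) and fell by 0.60 ± 0.09 in UO126 (adjusted p = 0.000867), and rose by 1.02 ± 0.09 in TSA (adjusted p = 5.02e-08). All 3 calls held without any single array, and the UO126 call was lost without number 2 in all treatments (adjusted p = 0.0846). In SB202190 it read 8.74, 8.84 and 8.77, below every DMSO array, a difference of -0.30 ± 0.09 (adjusted p = 0.0967, and 0.0291 with paired arrays). Col15a1, the other multiplexin, was called against DMSO in no treatment, with 8.60, 8.68 and 8.86 in DMSO, 8.93, 9.27 and 9.21 in UO126 and 8.10, 8.44 and 8.15 in SB202190. Its arrays did not overlap with DMSO in these 2 treatments, and with paired arrays the differences of 0.42 in UO126 and -0.49 in SB202190 passed (adjusted p = 0.00969 and 0.0036).

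Col6a1, Col6a2 and Col6a3, the chains of the common type VI collagen, fell in TSA. Col6a3 read 12.25, 12.35 and 12.42 in DMSO and 10.79, 11.05 and 11.08 in TSA, a difference of -1.37 ± 0.10 (adjusted p = 1.38e-08). Col6a2 read 12.73, 12.62 and 12.52 in DMSO and 11.56, 11.50 and 11.53 in TSA, a difference of -1.09 ± 0.08 (adjusted p = 1.48e-08). Col6a1 read 12.96, 12.89 and 12.73 in DMSO and 12.43, 12.39 and 12.62 in TSA, a difference of -0.38 ± 0.09 (adjusted p = 0.00332). Col6a3 was also lower in LY294002 (11.96, 11.96 and 12.01), a difference of -0.36 ± 0.10 (adjusted p = 0.0383). That call was lost without DMSO array 2 or 3, any LY294002 array or SB202190 array 3 (adjusted p from 0.0512 to 0.142). Col6a2 was the only collagen called in SB202190, where it read 12.10, 12.18 and 12.34 and fell by 0.42 ± 0.08 (adjusted p = 0.0145). The call was lost without DMSO array 2, SB202190 array 1 or SB202190 array 2 (adjusted p = 0.0534, 0.0964 and 0.0736). Col6a4, a low-signal member, fell by 0.24 in TSA (adjusted p = 0.0407), a call lost without any 1 of 7 arrays (DMSO 1 and 2, LY294002 2, UO126 3, SB202190 2, TSA 2 and 3, adjusted p from 0.0505 to 0.142).

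Of the 6 FACITs outside type IX, all but Col20a1 were called lower in TSA. Col14a1, found at the fibril surface of dense connective tissue, read 8.06, 7.95 and 7.84 in DMSO and 6.98, 7.03 and 6.95 in TSA, a difference of -0.96 ± 0.14 (adjusted p = 2.35e-05). Col12a1, of perichondrium and tendon, read 10.32, 10.16 and 10.20 in DMSO and 9.38, 9.18 and 9.73 in TSA, a difference of -0.80 ± 0.11 (adjusted p = 1.76e-05). Col16a1 read 10.77, 10.76 and 10.82 in DMSO and 9.98, 10.02 and 10.12 in TSA, a difference of -0.74 ± 0.07 (adjusted p = 3.62e-07). No TSA array of these 3 genes overlapped with DMSO. In LY294002 Col12a1 read 10.67, 10.76 and 10.54 and rose by 0.43 ± 0.11 (adjusted p = 0.0251), which was lost without DMSO array 2 or 3 or LY294002 array 1 or 2 (adjusted p from 0.0817 to 0.103). Col19a1 and Col22a1, both of low signal, fell by 0.28 each in TSA (adjusted p = 0.044 and 0.0341). The Col19a1 arrays overlapped with DMSO, and both calls depended on single arrays, Col19a1 on 10 of them (DMSO 1 and 2, LY294002 2 and 3, and all of SB202190 and TSA, adjusted p from 0.0504 to 0.196) and Col22a1 on 5 (DMSO 1 and 2 and all of TSA, adjusted p from 0.06 to 0.128). Col20a1 differed by 0.15 in TSA (adjusted p = 0.168) and was called in no comparison with DMSO.

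Of the remaining members, Col7a1, the anchoring-fibril collagen, rose by 0.21 in TSA (adjusted p = 0.041) and Col13a1, a transmembrane collagen, fell by 0.26 (adjusted p = 0.0328). Both calls were lost without single arrays, Col7a1 without DMSO 2 or 3 or any SB202190 or TSA array (adjusted p from 0.0503 to 0.135) and Col13a1 without DMSO 1 or 2 or TSA 1 or 3 (adjusted p from 0.0827 to 0.113). Col23a1, Col25a1 and Col26a1 were called in no comparison with DMSO. The 3 members tested nowhere, Col17a1, Col24a1 and Col6a5, stayed under the filter level in all treatments.

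Several collagen genes lie next to each other in the genome, with no other protein-coding gene of the RefSeq table between them. There are 7 such pairs among the members, and in 5 both genes were tested in every comparison with DMSO. Col3a1 and Col5a2 both fell in TSA, with differences of -1.21 and -0.83, and so did Col6a1 and Col6a2, with -0.38 and -1.09. Col4a1 and Col4a2, which are transcribed away from each other, both rose in LY294002, by 0.47 and 0.62, and in TSA, by 0.24 and 0.60. Col4a5 and Col4a6, also transcribed away from each other, were not called in the same treatments. Col9a1 and Col19a1 fell in TSA, with differences of -0.44 and -0.28, but Col19a1 read 6.20, 6.19 and 6.05 there against 6.65, 6.45 and 6.19 in DMSO, close to the filter level. The other 2 pairs, Col4a3 with Col4a4 and Col6a4 with Col6a5, hold a gene that was not tested in every comparison.

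Promoter sequences are shown for 4 members that moved in opposite directions in TSA, Col3a1 and Col9a2 (lower) and Col8a1 and Col18a1 (higher), each chosen among the genes whose listed start is the outer end of the RefSeq gene. Each line gives the 120 bases before the start, 5′ to 3′ on the gene's strand, from RefSeq on build GRCm38.p6. Capitals mark matches, on either strand, to the CCAAT box, to the GC box GGGCGG, which SP-family factors bind, and to the TATA motif TATAA. The windows are chr1:45311418-45311537 on the plus strand for Col3a1, chr4:121039446-121039565 on the plus strand for Col9a2, chr16:57754738-57754857 on the minus strand for Col8a1 and chr10:77166531-77166650 on the minus strand for Col18a1.
Col3a1: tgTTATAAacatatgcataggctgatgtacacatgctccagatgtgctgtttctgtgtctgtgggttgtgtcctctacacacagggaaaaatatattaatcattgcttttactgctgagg
Col9a2: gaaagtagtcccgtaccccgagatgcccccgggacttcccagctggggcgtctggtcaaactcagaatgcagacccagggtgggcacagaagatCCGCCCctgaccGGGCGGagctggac
Col8a1: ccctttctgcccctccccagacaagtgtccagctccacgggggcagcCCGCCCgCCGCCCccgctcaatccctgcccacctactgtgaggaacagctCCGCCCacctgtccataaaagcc
Col18a1: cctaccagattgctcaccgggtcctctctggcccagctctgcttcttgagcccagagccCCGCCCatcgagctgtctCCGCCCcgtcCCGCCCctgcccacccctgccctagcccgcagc
The Col8a1 and Col18a1 windows hold 3 matches to GGGCGG each and the Col9a2 window 2, while that of Col3a1 holds none and has TATAA on both strands at overlapping bases. Col18a1 has a second listed start, whose 120 bases hold none of the 3 motifs, and the arrays do not tell which start was used. Promoters were matched for 32 of the 41 genes, with 35 windows of 250 bases before to 50 after the start. GGGCGG was found in 62.9% of the collagen windows and in 35.7% of all 32851 windows of the table, CCAAT in 37.1% against 37.4%, and TATAA in 17.1% against 24.9%. Among genes with a promoter, GGGCGG was in 7 of 7 called higher and 9 of 15 called lower in TSA, and in 21 of all 32. CCAAT was in 5 of 7 higher and 5 of 15 lower, and in 13 of 32. TATAA was in 1 of 7 higher and 4 of 15 lower, and in 6 of 32. A match to these letters is a description and not a binding site.

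The kinase inhibitors were also set directly against each other in the same fit, which tells whether a collagen raised by one differs from its level under another, at doses not known to be matched. Between UO126 and SB202190, 13 of 37 collagens were higher in UO126, against 2.68% of all probe sets, and none was lower, against 2.53%. Col9a2 differed most, by 1.26 ± 0.16 (adjusted p = 0.000105), followed by Col8a2 (1.08), Col8a1 (0.97 ± 0.14, adjusted p = 0.00047) and Col15a1 (0.91 ± 0.13, adjusted p = 0.000397). Col27a1 was higher by 0.72 ± 0.12 (adjusted p = 0.000975) and Col5a1 by 0.48 ± 0.08 (adjusted p = 0.000939). The other 7 were Col11a2, Col9a3, Col22a1, Col12a1, Col1a1, Col6a2 and Col4a5, by 0.37 to 0.89, and each of these was lost without 1 or more single arrays. The 13 calls became 8 without UO126 array 3 and 6 without SB202190 array 1.

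**Figure D4:**
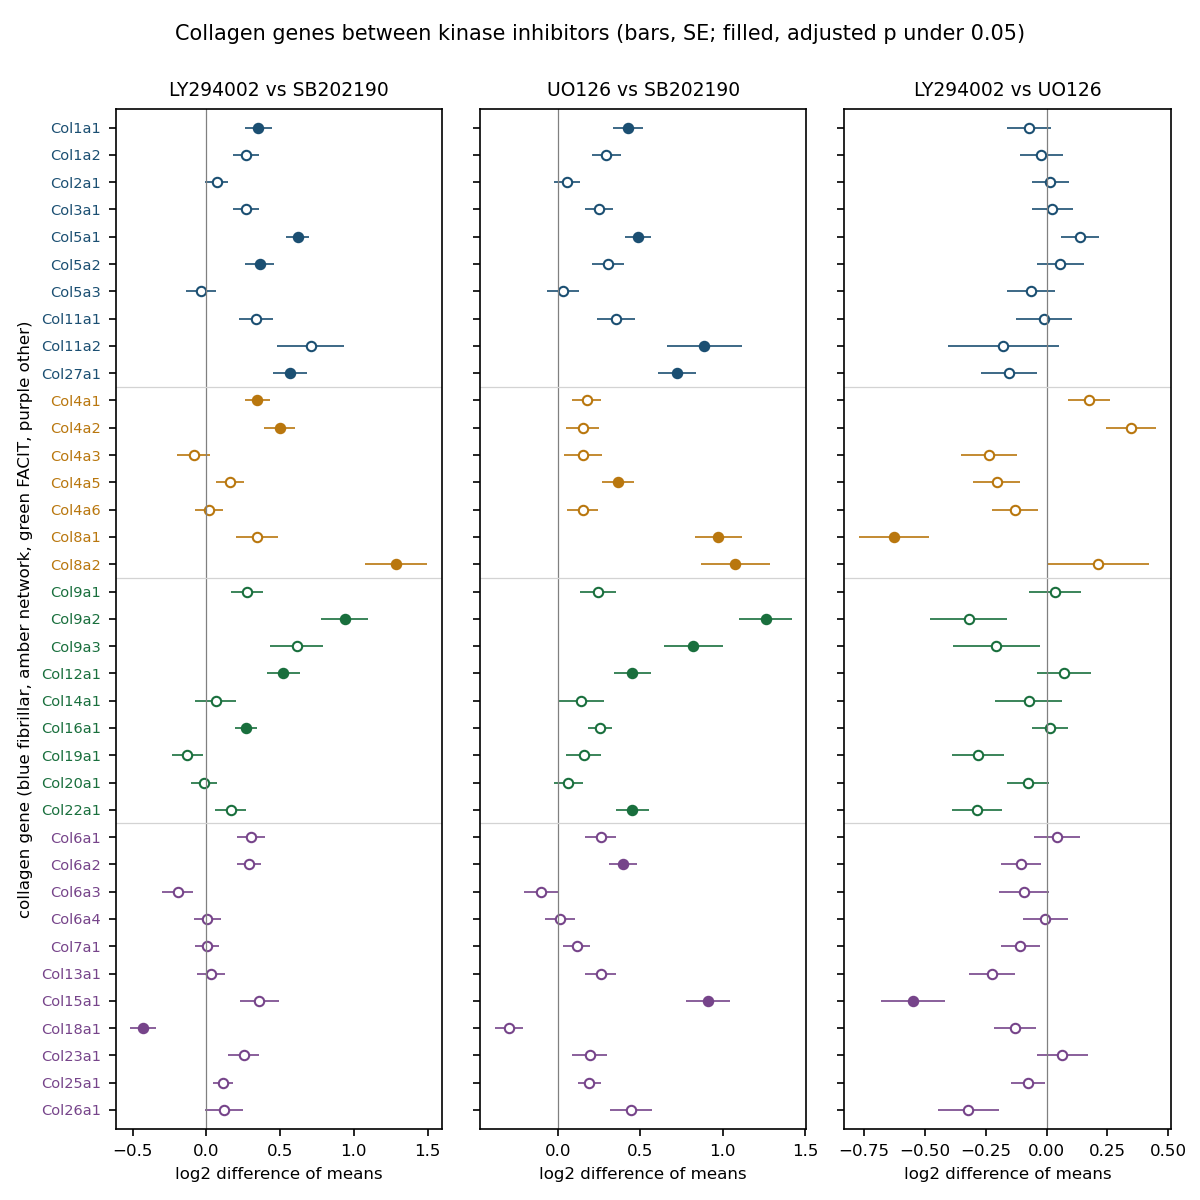
Log2 difference of mean signal between kinase inhibitors for the collagen genes tested, 1 panel per pair with its own x axis; bars are standard errors and filled points are called at an adjusted p under 0.05. Most genes lie right of 0 against SB202190, with Col18a1 as the only gene called lower, and between LY294002 and UO126 Col8a1 and Col15a1 alone are filled.

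Between LY294002 and SB202190, 10 collagens were higher in LY294002, against 3.06%, and 1 was lower, against 1.54%. The largest were Col8a2, by 1.29 ± 0.21 (adjusted p = 0.00172), Col9a2, by 0.94 ± 0.16 (adjusted p = 0.00216), and Col5a1, by 0.62 ± 0.08 (adjusted p = 0.000228), and Col18a1 was lower, at -0.43 (adjusted p = 0.00695). The count of 10 became 6 without LY294002 array 1, 5 without LY294002 array 2 or SB202190 array 2, 4 without SB202190 array 1 and 16 with paired arrays. Between LY294002 and UO126 no collagen was higher, against 3.99%, and 2 were lower, against 1.65%: Col8a1, with a difference of -0.63 ± 0.14 (adjusted p = 0.0167), and Col15a1, with -0.55 ± 0.13 (adjusted p = 0.0216). Both were lost without single arrays. Col8a1 was lost without LY294002 array 2 or 3 or UO126 array 1 or 3 (adjusted p from 0.052 to 0.0677), and Col15a1 without LY294002 array 1 or 2 or UO126 array 2 or 3 (adjusted p from 0.0507 to 0.116). With paired arrays 5 were lower and 1 was higher. The share over all probe sets with paired arrays was not computed between inhibitors.

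A second reading came from the probe sets that did not stand for their gene. In TSA 29 such probe sets, of 23 genes, were tested, and 23 of them belong to genes that were called. All 23 had the sign of the gene's main probe set and 16 were called the same way, and none was called the opposite way in any of the 4 comparisons. In the kinase inhibitors fewer passed: of the probe sets of called genes, all with the sign of the main one, 1 of 7 was called the same way in LY294002, 3 of 7 in UO126 and 1 of 1 in SB202190. The 1 in LY294002 belonged to Col18a1 and was lower, at -0.89 (adjusted p = 0.000122). No other probe set of a collagen called higher in LY294002 passed, with adjusted p from 0.0591 (Col4a1) to 0.653 (Col5a1). In TSA the second probe set of Col3a1 differed by -2.29 ± 0.13 and that of Col27a1 by -2.77 ± 0.16, both more than the main one. The second probe set of Col9a1 fell by 1.01 ± 0.18, against -0.44 for the main one, which reads a brighter signal. That of Col1a1 spread too widely to be called, at -0.34 ± 0.40. Some genes were called only through another probe set. In TSA this was Col25a1, 0.69 ± 0.15 higher (adjusted p = 0.000861), where its main probe set gave -0.11. In UO126 they were Col25a1, by 0.64 (adjusted p = 0.0284), and Col22a1, by 0.47 (adjusted p = 0.0185). In LY294002 they were Col11a1, by 0.39 (adjusted p = 0.0138), and Col5a2, by 0.47 (adjusted p = 0.00582), and in SB202190 it was Col5a1, by -0.33 (adjusted p = 0.034).

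Most of the tested genes that fold, modify, secrete and cross-link collagen fell in TSA. The list holds 37 genes of collagen synthesis and processing, of which 33 were measured and 31 tested, and 10 collagen receptors, of which 9 were measured and tested. In TSA 22 of 31 processing genes were lower, against 20.6% of all probe sets, and 2 higher, against 23.0%, with a median difference of -0.69. Loxl3, a lysyl oxidase that cross-links collagen, read 10.93, 10.81 and 11.03 in DMSO and 8.50, 8.25 and 8.48 in TSA, a difference of -2.51 ± 0.11 (adjusted p = 1.7e-11). P3h3, of the prolyl 3-hydroxylase family, read 9.43, 9.44 and 9.14 and then 7.31, 7.28 and 7.37, a difference of -2.02 ± 0.10 (adjusted p = 5.71e-11). Pcolce, the enhancer of procollagen C-proteinase, read 13.20, 13.08 and 12.80 and then 11.40, 11.39 and 11.47, a difference of -1.60 ± 0.10 (adjusted p = 1.53e-09). P4ha3, a prolyl 4-hydroxylase chain, fell by 1.59 ± 0.14 (adjusted p = 8.48e-08). The 2 that rose were Loxl4, another lysyl oxidase, by 1.26 ± 0.15 (adjusted p = 1.84e-06), and the lysyl hydroxylase Plod1, by 0.45 ± 0.08 (adjusted p = 0.000307).

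**Figure D5:**
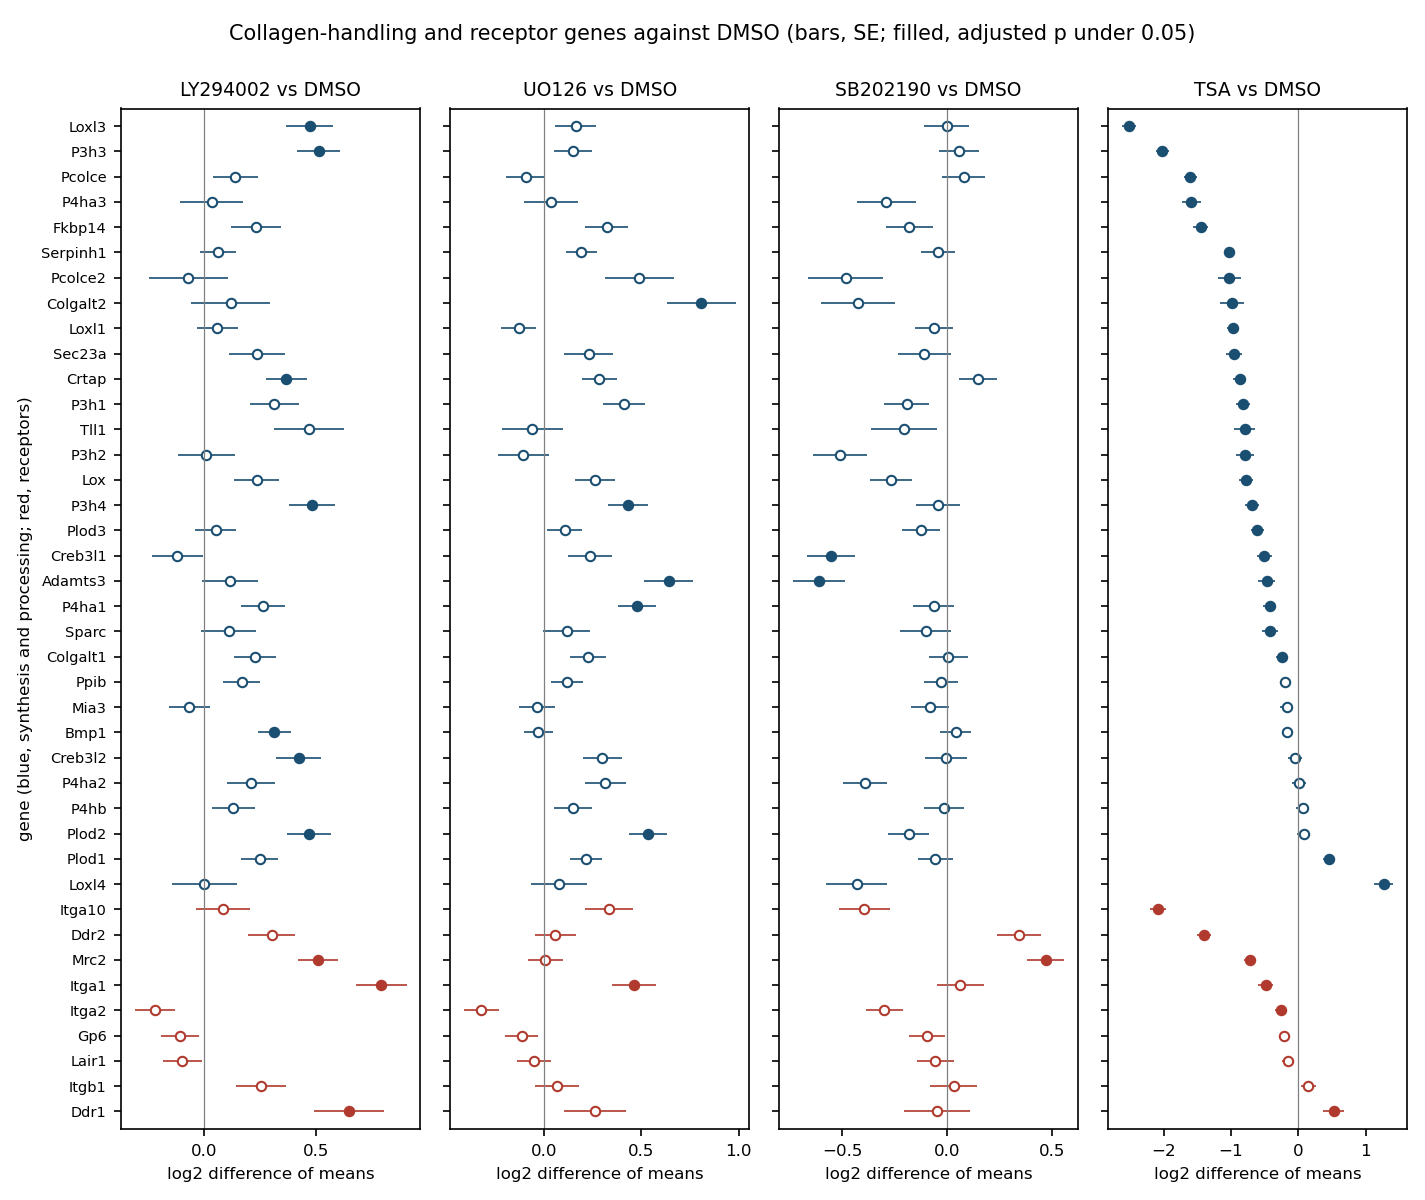
Log2 difference of mean signal from DMSO for the tested genes of collagen synthesis and processing (blue) and collagen receptors (red), 1 panel per inhibitor with its own x axis, ordered by the TSA difference within each list; bars are standard errors and filled points are called at an adjusted p under 0.05. The TSA panel runs from -2.51 for Loxl3 to 1.26 for Loxl4, and most of the LY294002 and UO126 points lie right of 0.

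Of the 9 collagen receptors, 5 were lower in TSA, against 20.6% of all probe sets, and 1 was higher, against 23.0%. Itga10, the alpha chain of a type II collagen integrin of chondrocytes, read 9.39, 9.26 and 9.26 in DMSO and 6.92, 7.29 and 7.45 in TSA, a difference of -2.08 ± 0.12 (adjusted p = 6.62e-10). Ddr2, a receptor kinase for fibrillar collagens, read 10.53, 10.38 and 10.33 and then 8.85, 9.02 and 9.15, a difference of -1.40 ± 0.10 (adjusted p = 1.1e-08). Mrc2, which takes up collagen for degradation, fell by 0.72 ± 0.09 (adjusted p = 4.27e-06). Ddr1, whose ligands include type IV collagen, rose by 0.52 ± 0.16 (adjusted p = 0.0126), a call lost without DMSO array 2, TSA array 1 or TSA array 3 (adjusted p = 0.0751, 0.051 and 0.0513).

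LY294002 raised 7 of the 31 processing genes and 3 of the 9 receptors, against 6.83% of all probe sets, and lowered none, against 1.78%. P3h3 rose by 0.51, P3h4 by 0.48, the lysyl hydroxylase Plod2 by 0.47 and Loxl3 by 0.47, and among the receptors Itga1, the alpha chain of a collagen integrin, read 8.46, 8.30 and 8.19 in DMSO and 9.35, 8.95 and 9.02 in LY294002, a rise of 0.79 ± 0.11 (adjusted p = 0.000657). Ddr1 rose by 0.65 and Mrc2 by 0.51. The 10 calls became 6 without DMSO array 2 and 5 without LY294002 array 1. Against shares of 1.14% higher and 0.792% lower over all probe sets, UO126 lowered none and raised 5 of 31 processing genes, among them Colgalt2, a collagen galactosyltransferase (0.81), Adamts3, a procollagen N-proteinase (0.64), Plod2 (0.53) and P4ha1 (0.48), and 1 of 9 receptors, Itga1 (0.46). None of these 6 calls held without every single array, with 3 left without DMSO array 2, 2 without DMSO array 3 and none without UO126 array 3. In SB202190, where 1.23% of all probe sets were higher and 0.706% lower, 2 of 31 processing genes were lower and 1 of 9 receptors was higher. It lowered Adamts3, with a difference of -0.61 ± 0.12 (adjusted p = 0.0168), and Creb3l1, a transcription factor of collagen secretion, with -0.55 ± 0.11 (adjusted p = 0.0169), and raised Mrc2, by 0.47 ± 0.09 (adjusted p = 0.0103). Each of the 3 was lost without SB202190 array 1 (adjusted p = 0.0569, 0.11 and 0.0702). Adamts3 was also lost without DMSO array 2 or 3 or SB202190 array 2 or 3 (adjusted p from 0.0525 to 0.0901), and Creb3l1 without DMSO array 2 or 3 or SB202190 array 2 (adjusted p from 0.0822 to 0.0888). With paired arrays 8 of the list were lower and 2 higher. Over all 34539 probe sets tested, 668 were then lower and 1237 higher.

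Marker lists of several cell types moved beside the collagens. The counts of calls below stand against the shares over all probe sets tested. In TSA these were 20.6% lower and 23.0% higher. In LY294002 6.83% were higher and 1.78% lower, in UO126 1.14% and 0.792%, and in SB202190 1.23% and 0.706%. The summed signal of the 12 chondrocyte markers, on a linear scale, was 36616 to 40586 in DMSO, 51522 to 54762 in LY294002, 52350 to 64786 in UO126, 28327 to 36158 in SB202190 and 7947 to 12365 in TSA. In TSA 11 of the 12 were called lower, with differences of -3.32 for Matn3 (a matrilin) and -2.10 for Acan, and only Prg4 (lubricin) was not. In LY294002 4 of the 12 were higher and in UO126 3, and Prg4 was lower in both and in SB202190, where no other chondrocyte marker was called. Of 10 fibroblast and perichondrium markers, 7 were lower and 2 higher in TSA, and their sum was 13998 to 17489 in DMSO and 10210 to 10831 in TSA. Of 10 skeletal muscle markers, 9 were tested and 7 were lower, with sums of 2277 to 5308 in DMSO and 1155 to 1248 in TSA. Of the 5 osteoblast markers measured 3 were lower in TSA, with sums of 3682 to 5190 in DMSO and 1451 to 4065 in TSA. In SB202190 the osteoblast sum was 1807 to 2716, with 5 of 5 differences negative and none called, and in UO126 it was 5113 to 5540, with 2 of 5 called higher. Among the fibroblast and perichondrium markers, the tendon gene Tnmd rose by 0.58 in LY294002 and 0.98 in UO126. The 8 endothelial markers, whose cells make type IV and XVIII collagen, summed to 684 to 739 in DMSO, 628 to 679 in LY294002 and 728 to 802 in TSA; Pecam1, Cdh5 and Tie1 lay under the filter level, and Kdr alone was called higher in TSA, by 0.30. Of the 7 macrophage and leukocyte markers tested 5 were lower and 1 was higher in TSA. Of 8 keratinocyte markers 1 was lower there, or 12.5%, under the share over all probe sets. Of 4 Schwann and neural markers 2 were higher and 1 was lower, and of 2 erythroid markers none was called. The part of these markers' cells in the collagen differences was not tested.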

How the data were processed

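Total RNA of 15 cultures was hybridized to Affymetrix mouse genome arrays. The deposited values are log2 signals that the authors had normalized between arrays; whether by GC-RMA or RMA was not settled. Of 45101 probe sets, 64 controls were left out, and 34945 had 1 gene symbol. Group means of the 5 treatments were estimated together from all 15 arrays with limma 3.58.1 (R 4.3.3), which left 10 residual degrees of freedom. Probe sets with a mean signal of 50 or more in either group were tested, with Benjamini-Hochberg adjustment over all of them. The fit was also run on simulated data with independent noise. These held no shared replicate effect, so that run does not bear on the pairing of arrays. Exact permutation of 3 against 3 arrays cannot go below p = 0.1, so no such test was used. The replicates are described as biological, and p-values set each difference against the spread between these samples. The main fit held no term for replicate number, so that spread includes what same-numbered arrays share.

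Each collagen was represented by its brightest probe set. Array values are given for up to 5 called collagens per direction and comparison by size of difference, among those whose arrays did not overlap with DMSO, and for chains of types I, II, III, V, IX and XI and neighbouring pairs; other called members are named with their difference. Of the processing and receptor lists, up to 4 called genes per comparison are named, with Plod1 and some array values added after their values were seen. The members and gene lists (collagen processing, receptors and cell type markers) were chosen with earlier results of these data known. Deviations of same-numbered arrays from their group means were correlated between DMSO and each inhibitor. The correlations were 0.402 to 0.768 for LY294002, 0.325 to 0.715 for UO126, 0.236 to 0.323 for SB202190 and 0.0281 to 0.473 for TSA. Pairing by number was therefore taken to be allowed for the kinase inhibitors but not for TSA. The replicate block was still fitted over all treatments, so the values with paired arrays come from a fit that paired the TSA arrays too. A block without the TSA arrays was not among the alternatives. Alternatives were a replicate block, a fit of 2 groups, other filters and normalizations, averaging a gene's probe sets, and leaving out each array. Leaving out each number in all treatments, and all alternatives for pairs of kinase inhibitors, were added after seeing the data.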

Additional observations from a re-analysis of the deposited data

How the results depend on the processing

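No collagen difference called as reported changed sign in any setting run, and the cause of the changes in counts below was not tested. With the replicate block, the count of collagens was 12 higher and 3 lower in LY294002 (8 and 2 as reported), 9 higher in UO126 (5), 5 lower in SB202190 (1) and 8 higher and 23 lower in TSA (7 and 22), and 35 differed over all treatments (34). The block gave 16 higher in LY294002 than in SB202190 (10), 1 higher and 5 lower in LY294002 than in UO126 (0 and 2), and 1 lower in UO126 than in SB202190 (0). Over all probe sets it raised the calls from 2362 higher and 616 lower to 4609 and 1761 in LY294002, from 393 and 274 to 848 and 659 in UO126, and from 425 and 244 to 1237 and 668 in SB202190. In TSA they went from 8026 and 7181 to 8944 and 8952.

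The fit of 2 groups alone gave 3 higher and 1 lower in LY294002, 3 higher in UO126, 0 lower in SB202190, 1 lower in LY294002 than in UO126 and 1 lower in UO126 than in SB202190, and over all probe sets 554 higher and 142 lower in LY294002, 169 and 149 in UO126, and 204 and 164 in SB202190. Quantile normalization gave 4 higher in LY294002, 3 higher in UO126 and 3 lower in SB202190, and over all probe sets 1410 lower in LY294002, 455 lower in UO126, and 777 higher and 503 lower in SB202190. Median centring gave 1 lower in LY294002 and 1 lower in UO126 than in SB202190, and over all probe sets 3113 higher and 377 lower in LY294002. Averaging a gene's probe sets gave 3 lower in SB202190, 1 higher in LY294002 than in UO126 and 1 lower in UO126 than in SB202190. A filter at a signal of 100 gave 1 in each of these last 2 counts.

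Leaving out single arrays gave 3 to 10 higher and 1 to 2 lower in LY294002, 3 to 7 higher and 1 lower in UO126, 0 higher and 0 to 3 lower in SB202190, 5 to 8 higher and 17 to 23 lower in TSA, and 31 to 34 over all treatments. Between inhibitors the ranges were 4 to 12 higher and 1 lower (LY294002 over SB202190), 0 to 1 higher and 0 to 2 lower (LY294002 over UO126), and 6 to 14 higher and 0 to 1 lower (UO126 over SB202190). Leaving out number 1, 2 or 3 in all treatments gave 4, 0 and 3 higher and 1, 1 and 1 lower in LY294002, and 3, 0 and 3 higher in UO126, with 0 lower without number 2. In SB202190 it gave 0 lower each time. In TSA it gave 4 higher without number 1 or 3, 13 lower without number 1 and 12 lower without number 2. Between inhibitors, LY294002 over SB202190 gave 3 higher without number 1, 1 higher without number 2 and 0 lower without number 2 or 3. LY294002 over UO126 gave 0 lower without number 2 or 3, and UO126 over SB202190 gave 7 higher without number 1 and 4 without number 2.

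For the genes of collagen processing and the receptors, the block gave 15 higher in LY294002 (10 as reported), 9 higher and 1 lower in UO126 (6 and 0), 2 higher and 8 lower in SB202190 (1 and 2) and 3 higher and 29 lower in TSA (3 and 27). The fit of 2 groups gave 4 higher in LY294002, 1 higher in UO126 and 1 lower in SB202190. Quantile normalization gave 5 higher in LY294002 and 2 higher and 5 lower in SB202190, and averaged probe sets 1 lower in UO126 and 5 lower in SB202190. Leaving out single arrays gave 5 to 15 higher in LY294002, 0 to 6 higher in UO126, 0 to 1 higher and 0 to 3 lower in SB202190, and 2 to 3 higher and 26 to 28 lower in TSA. Leaving out number 1, 2 or 3 gave 4, 1 and 3 higher in LY294002, 2, 0 and 0 higher in UO126 and 0 higher in SB202190 each time, where 0 were lower without number 2 and 1 without number 3.

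Col19a1, Col22a1 and Col6a4 lie near the filter level and Col2a1 at the top of the scale; the effect of this on their differences was not tested. The precision is limited by 3 arrays per treatment.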
